A study of Mus musculus with 69 samples.

Results

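Lhcgr, Runx1, Runx2, Sfrp4, Ptgfr, Parm1, Sectm1b and Tmem178 were followed here as luteal and luteinizing marker genes of the mouse ovary. They are 8 of the 55964 genes counted in this series, were taken by symbol, and all 8 were found in the count tables of all tissues. The mice carry a Zeb1 knock-in allele in which the miR-200a and miR-200b sites of the Zeb1 3′ UTR are mutated, so that these microRNAs no longer lower its mRNA. WT females have no such allele, Zeb1 200H females have 1 and Zeb1 200M females have it on both chromosomes. The allele is present in every cell of the body and was bred into C57BL/6J from 2 independent ES cell clones, and the labels do not say from which clone a given mouse came. All females were staged for proestrus. The young cohort was virgin and 8 to 12 weeks old. The older cohort was 28 to 36 weeks old and had been through a breeding trial. Each cohort gave 4 ovary libraries per genotype, 24 in all, and the 45 pituitary and hypothalamus libraries of the same design were used to read the same genes outside the ovary. Levels are given in CPM, the counts of a gene relative to the TMM-scaled size of its library.

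After ovulation, the granulosa and theca cells left in the ruptured follicle luteinize under luteinizing hormone (LH) and become the corpus luteum, which makes progesterone. LH acts through the receptor encoded by Lhcgr and induces transcription factors of the RUNX family in granulosa cells. The luteal cells then take up cholesterol, turn it into progesterone, depend on prolactin in rodents, and are removed when prostaglandin F2α binds its receptor. Genes switched on along this path are used as markers of luteinizing and luteal cells. In bulk ovary RNA, fewer cells of a type and less RNA per cell cannot be told apart.

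The members span these steps. Lhcgr (ENSMUSG00000024107, chr17:88716481-88791990, minus strand, GRCm38) encodes the LH receptor. Ptgfr (ENSMUSG00000028036, chr3:151796502-151837630, minus strand) encodes the prostaglandin F2α receptor. Runx1 (ENSMUSG00000022952, chr16:92601466-92826149, minus strand) and Runx2 (ENSMUSG00000039153, chr17:44495987-44814797, minus strand) encode runt-domain transcription factors that bind DNA together with the Cbfb subunit. Sfrp4 (ENSMUSG00000021319, chr13:19623104-19632994, plus strand) encodes a secreted frizzled-related protein that binds Wnt ligands. Parm1 (ENSMUSG00000034981, chr5:91517615-91626894, plus strand) encodes a mucin-like membrane protein. Sectm1b (ENSMUSG00000039364, chr11:121053458-121063569, minus strand) encodes a secreted and transmembrane protein. Tmem178 (ENSMUSG00000024245, chr17:80944632-81001816, plus strand) encodes a membrane protein of the endoplasmic reticulum. The exons of Runx2 share 519 bases, 7.32% of its exon length, with Runx2os1 on the other strand. Those of Ptgfr share 329 bases with Gm43618, and those of Runx1 share 106 with Gm26626, also on the other strand. Reads of the older ovary were counted without strand and cannot be told apart at these bases, whereas the young libraries were counted by strand.

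The allele removes sites for 2 seed families, so the microRNAs are shown first, with the seed (bases 2 to 8) in capitals. The sequences were taken from RefSeq on GRCm38.p6, and the first 2 share 1 seed and the other 3 share the second.
mmu-miR-200a-3p: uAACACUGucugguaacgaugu
mmu-miR-141-3p: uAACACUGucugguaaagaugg
mmu-miR-200b-3p: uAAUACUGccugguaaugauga
mmu-miR-200c-3p: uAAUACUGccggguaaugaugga
mmu-miR-429-3p: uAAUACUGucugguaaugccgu

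In mRNA, the letters that pair with the seed of miR-200b, miR-200c and miR-429 read CAGTATT. They were found in the annotated 3′ UTR of Runx1 and Ptgfr, and in 12.7% of the 21875 UTRs searched. For miR-200a and miR-141 they read CAGTGTT, found in Runx1, Sfrp4 and Parm1, and in 16.4% of UTRs. The match in Ptgfr is shown because it is the 1 match among the members that is followed by the A of an 8mer site, and it begins at base 8 of the UTR (chr3:151801594-151801623, minus strand, GRCm38, match in capitals).
Ptgfr 3′ UTR: atcaatgCAGTATTagaagaaagtcacgga

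Promoter windows of 300 bases were at hand for 7 of the 8 members, Sfrp4 having no entry, and were searched on both strands. The 2 RUNX genes are shown because their promoters hold the same stretch of 22 bases, with ACCACA, the core of the RUNX motif, present in 2 copies (capitals). Of 32851 promoters, 2 held this stretch. It starts 24 bases after the transcription start in Runx1 (chr16:92826030-92826051, minus strand) and 19 bases after it in Runx2 (chr17:44814588-44814609, minus strand).
Runx1 promoter: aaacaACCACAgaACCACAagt
Runx2 promoter: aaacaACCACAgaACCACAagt

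ACCACA was also found in the Lhcgr window, and in 16.8% of all promoters. The E-box CAGGTA, a motif bound by ZEB1, was found in 1 member, Sectm1b, and in 12.0% of all promoters. It lies 26 bases after the transcription start and is shown because Sectm1b was the 1 member that passed the test in heterozygous ovaries (chr11:121063527-121063556, minus strand, motif in capitals).
Sectm1b promoter: ttgccagagaagCAGGTAagaagctggagc

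The second form of this E-box, CAGGTG, was found in Runx1 and Tmem178 and in 20.2% of promoters. AAGGTCA, the site of the NR5A receptors, was found in no member and in 4.72% of promoters, and the cyclic AMP response element TGACGTCA in no member and in 1.79%. A motif match is a run of letters and not a bound site.

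Young ovary libraries held 6337205 to 12896366 counted reads each, and older ones 7985206 to 14655095. The ovary label was checked against granulosa cell markers, which summed to 2950 to 10600 CPM over the 24 libraries, and oocyte markers, which summed to 234 to 595 CPM. Zeb1 itself did not pass the test in ovary, where it was at 200.0 ± 14.8 CPM in young WT and 191.0 ± 8.22 CPM in young 200M (SD, n = 4 each), and at 90.9 ± 12.6 and 78.3 ± 14.5 CPM in the older cohort. In pituitary it rose by log2 0.52 in young 200M and by 0.55 in older 200M (edgeR, adjusted p = 2.39e-05 and 0.000833). Counts per gene do not show the mutated sites, so they do not check the genotype of an ovary library. Young 200M replicate 2 stood apart from the other 3 young 200M ovaries in several members, and the fits of that group are given with and without it. The paper marks a young 200M sample whose donor had corpora lutea in the other ovary, and a young 200H sample whose donor had none there. The labels do not say which libraries these are, and a link to the levels of the members was not tested. Older 200M replicate 3 had a low sum of granulosa cell markers (2970 CPM against 7340 to 9600 in the other 3), a high sum of fat markers (989 against 139 to 190) and a high sum of oviduct and surface epithelium markers (3830 against 87.4 to 619). Against the rest of their groups, granulosa sums were also low in young 200H replicate 4 (2950 against 5250 to 6960) and older WT replicate 3 (5470 against 9420 to 10400). The same held for older 200H replicate 4 (6050 against 9940 to 10600), which had a high oviduct and surface sum (3620 against 240 to 569).

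In young WT ovary, levels per kilobase of exon spanned from 332 ± 59.1 CPM per kb for Lhcgr to 4.53 ± 1.19 for Sectm1b (SD, n = 4). Sfrp4 followed Lhcgr at 77.8 ± 11.9 CPM per kb. Ptgfr (29.1 ± 7.08), Tmem178 (29.1 ± 9.94), Runx2 (24.7 ± 4.17) and Runx1 (23.1 ± 1.66) came next and lay within 1 SD of their neighbors in this order, ahead of Parm1 (11.6 ± 0.904). In older WT ovary the order was led by Sfrp4 at 683 ± 230 CPM per kb. Lhcgr (134 ± 58) and Ptgfr (126 ± 88.0) did not differ beyond their spread, and neither did Runx2 (10.8 ± 3.98), Parm1 (9.41 ± 3.86), Sectm1b (8.93 ± 4.93) and Runx1 (8.34 ± 1.91) among themselves, with Tmem178 (39.8 ± 21.9) in between. The cohorts differ in age, breeding, RNA selection and counting, which cannot be told apart in this order.

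The first question was whether luteal markers were lower in ovaries of homozygous females at a young age. Sectm1b, Tmem178 and Parm1 fell in young 200M against WT, by 6.78-fold, 10.3-fold and 1.30-fold. The remaining 5 did not pass the test over all 4 libraries. In 3 of the 4 young 200M ovaries, Runx2, Sfrp4 and Ptgfr were far below WT, and in the fourth, replicate 2, they were below the lowest WT library but far above the other 3. Without that library 7 of the 8 members were called lower, with Lhcgr as the exception. Replicate 2 stood out by its levels of these same members, so fits without it are not an independent test of them.

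**Figure D1:**
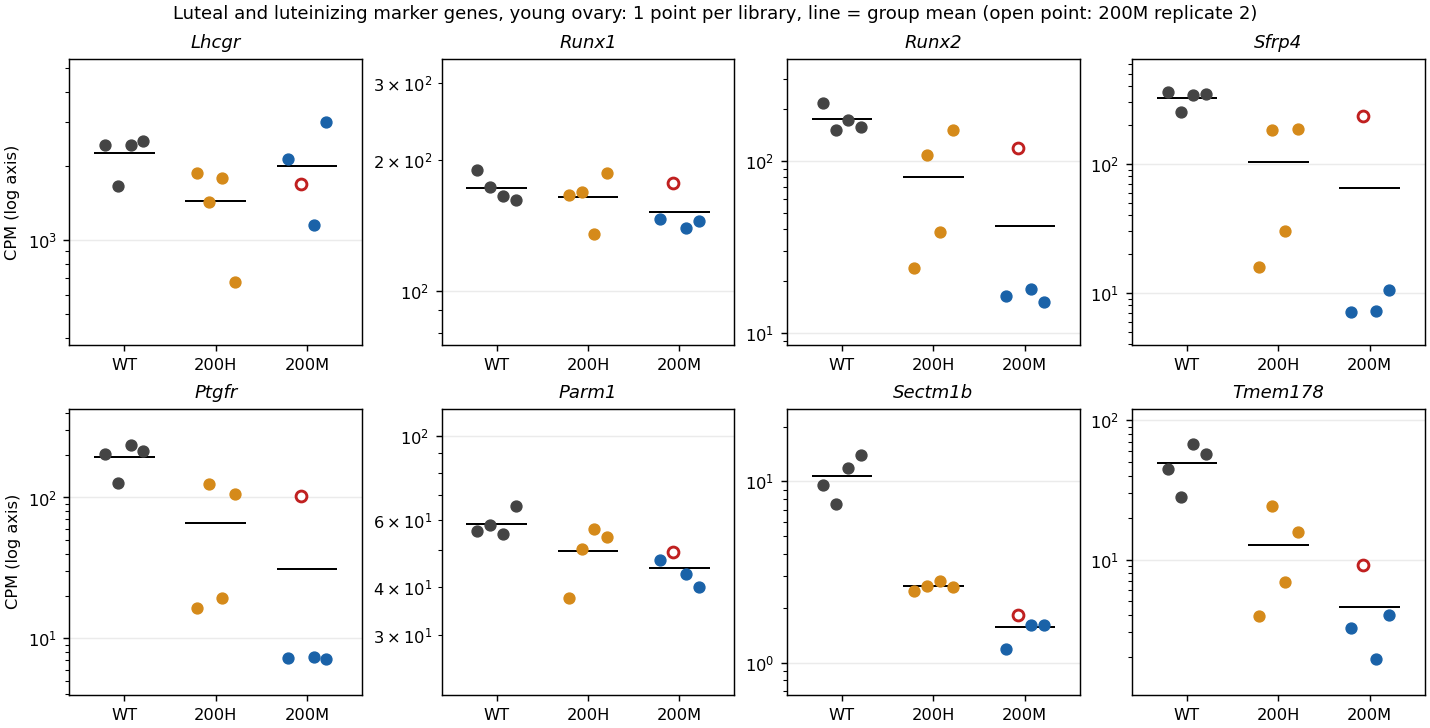
Levels of the 8 marker genes in young ovary (CPM, log axis) by genotype, with 1 point per library, a line at the group mean and an open point for 200M replicate 2. Runx2, Sfrp4 and Ptgfr show 3 low 200M libraries and 1 near WT, while Sectm1b is low in all 4, between 1.2 and 1.84 CPM.

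Sfrp4 had the widest range of the members in young ovary. It was at 361, 252, 341 and 346 CPM in young WT replicates 1 to 4, at 15.8, 182, 30.3 and 185 CPM in 200H, and at 7.06, 237, 7.24 and 10.5 CPM in 200M. Replicate 2 of 200M was thus near the lowest WT library, and the other 3 were below every 200H library. Its log2 fold change (log2FC) in 200M was −2.28 (SE 0.81, adjusted p = 0.171, edgeR quasi-likelihood test with Benjamini-Hochberg adjustment, as for all adjusted p-values here). Without 200M replicate 2 it was −5.28 (SE 0.16, adjusted p = 9.95e-11).

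Ptgfr, the receptor for the signal that ends luteal life, was at 203, 127, 237 and 214 CPM in young WT. It was at 16.5, 124, 19.3 and 105 CPM in 200H and at 7.30, 102, 7.39 and 7.13 CPM in 200M. The 3 low 200M libraries lay close together, and no mutant library of either genotype reached the lowest WT value. In 200M the log2FC was −2.60 (SE 0.65, adjusted p = 0.0505) and, without replicate 2, −4.74 (SE 0.20, adjusted p = 3.52e-09).

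Runx2 was at 217, 152, 173 and 158 CPM in young WT, at 23.8, 109, 38.8 and 151 CPM in 200H, and at 16.3, 118, 17.9 and 15.2 CPM in 200M. The same libraries were low as for Sfrp4 and Ptgfr, namely 200H replicates 1 and 3 and 200M replicates 1, 3 and 4. Its log2FC in 200M was −2.02 (SE 0.51, adjusted p = 0.052) with all libraries and −3.41 (SE 0.13, adjusted p = 1.01e-09) without replicate 2.

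Its paralog Runx1 stayed between 135 and 190 CPM in all 12 young ovaries. The fitted log2FC was −0.18 (SE 0.08, adjusted p = 0.281), and −0.26 (SE 0.07, adjusted p = 0.0391) without replicate 2. Lhcgr, which is also expressed by theca cells and by granulosa cells of large follicles, was at 1662 to 2526 CPM in WT, 673 to 1867 CPM in 200H and 1147 to 3011 CPM in 200M. The groups overlapped, and the log2FC in 200M was −0.18 (SE 0.22, adjusted p = 0.755) and −0.11 (SE 0.22) without replicate 2.

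Tmem178 was at 45.0, 28.0, 67.2 and 57.2 CPM in young WT, at 3.91, 24.1, 6.91 and 15.8 CPM in 200H, and at 3.23, 9.12, 1.92 and 4.03 CPM in 200M. All 200M libraries, replicate 2 included, lay below the lowest WT library, although replicate 2 was again the highest of its group. EdgeR gave 200M a log2FC of −3.36 (SE 0.34, adjusted p = 0.000674), and −3.98 (SE 0.30, adjusted p = 1.78e-06) without replicate 2.

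Sectm1b was at 9.58, 7.47, 11.9 and 14.0 CPM in young WT, at 2.49, 2.64, 2.82 and 2.63 CPM in 200H, and at 1.2, 1.84, 1.63 and 1.61 CPM in 200M. Here replicate 2 did not stand apart, and the genotypes did not overlap at any point of the order WT, 200H, 200M. The 200M values rest on 10 to 19 reads per library. In 200M the log2FC was −2.76 (SE 0.24, adjusted p = 0.000277), and −2.86 (SE 0.28, adjusted p = 1.64e-05) without replicate 2.

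Parm1 was at 56.2, 58.4, 55.3 and 65.4 CPM in young WT and at 47.1, 49.4, 43.3 and 40.0 CPM in 200M, with 200H at 37.6 to 56.8 CPM. Every 200M library lay below every WT library. The fitted log2FC was −0.38 (SE 0.08, adjusted p = 0.0307). The call was lost when 200M replicate 1, 3 or 4 or WT replicate 1, 2 or 4 was left out (adjusted p = 0.0585 to 0.107) and held without 200M replicate 2 (adjusted p = 0.00936) or WT replicate 3 (0.0454). It was also lost with 3 genotypes in 1 fit (adjusted p = 0.154) and with the replicate number as a block (0.101).

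Over the members, 3 of 8 were called lower in young 200M, where 1.7% of the 19250 genes tested were called lower. For 6 of 8 no 200M library reached the lowest WT library, which held for 4.56% of all genes. Without replicate 2, 7 of 8 were called lower (3.79% of genes), and 7 of 8 did not overlap (9.08% of genes). The median log2FC of the members was −2.15 with all libraries and −3.13 without replicate 2, and that of all genes was 0.006 and 0.008. Runx2 and Sfrp4 were picked out by the study from these libraries, and all 8 members were chosen with earlier results of these data known. The direction of the members and the counts of them, in either cohort, are therefore not independent evidence. The counts without replicate 2 also rest on leaving out a library that stood out in these same members.

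In heterozygous young ovaries, Sectm1b fell by 4.03-fold (log2 −2.01, SE 0.22, adjusted p = 0.0164). It was the 1 gene called lower in this comparison, 0.0051% of the 19621 tested, and no gene was called higher. At an unadjusted p below 0.05 there were 1384 genes, and DESeq2 called 74. The call of Sectm1b was lost when 200H replicate 2, 3 or 4 or WT replicate 1, 3 or 4 was left out (adjusted p = 0.0515 to 0.104), although the log2FC stayed between −2.15 and −1.86, and it held without 200H replicate 1 (0.00541) or WT replicate 2 (0.00569). With the replicate number as a block it was lost as well (adjusted p = 0.195).

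For 5 of 8 members no young 200H library reached the lowest WT library, against 2.58% of all genes, namely Runx2, Sfrp4, Ptgfr, Sectm1b and Tmem178. The 200H ovaries fell into 2 low and 2 higher libraries for 4 of them. Replicates 1 and 3 held 23.8 and 38.8 CPM of Runx2 and replicates 2 and 4 held 109 and 151, and the same pair was low in Sfrp4, Ptgfr and Tmem178. The gap to WT was narrow for Runx2, with a highest 200H value of 150.7 CPM and a lowest WT value of 151.9 CPM. It was narrow for Ptgfr as well (124.4 and 127.4 CPM). Fitted log2FC values were −1.10 (SE 0.42) for Runx2, −1.63 (SE 0.57) for Sfrp4, −1.53 (SE 0.52) for Ptgfr and −1.93 (SE 0.42) for Tmem178, with adjusted p-values of 0.612, 0.548, 0.518 and 0.266. Runx1 (−0.06), Parm1 (−0.23) and Lhcgr (−0.65, SE 0.25, adjusted p = 0.594) overlapped with WT.

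Between young 200M and 200H no member and no gene was called (0.0% of 19259 genes by edgeR, 648 at an unadjusted p below 0.05, and 0 members by DESeq2). Sectm1b was the 1 member of 8 with all 200M libraries below all 200H libraries, against 1.01% of genes, with a log2FC of −0.75 (SE 0.31, adjusted p = 0.999). Without 200M replicate 2, Runx2, Sfrp4, Ptgfr and Sectm1b did not overlap, 4 of 8 members against 2.49% of genes. There was again no call (0.0% of 20406 genes, 825 at an unadjusted p below 0.05), with log2FC values of −3.64 (SE 0.80, adjusted p = 0.551) for Sfrp4, −3.20 (SE 0.70, adjusted p = 0.548) for Ptgfr and −2.30 (SE 0.53, adjusted p = 0.658) for Runx2.

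The second question was whether the same genes were lower after a breeding trial. In older 200M ovary Runx2, Sfrp4, Ptgfr, Sectm1b and Tmem178 fell by 12.8-fold, 102-fold, 165-fold, 15.3-fold and 11-fold against WT. No library of the group stood near WT for any of these 5, and each of the 5 was called in all 14 alternative fits, including the 8 that left out 1 library each. Lhcgr, Runx1 and Parm1 did not pass the test.

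**Figure D2:**
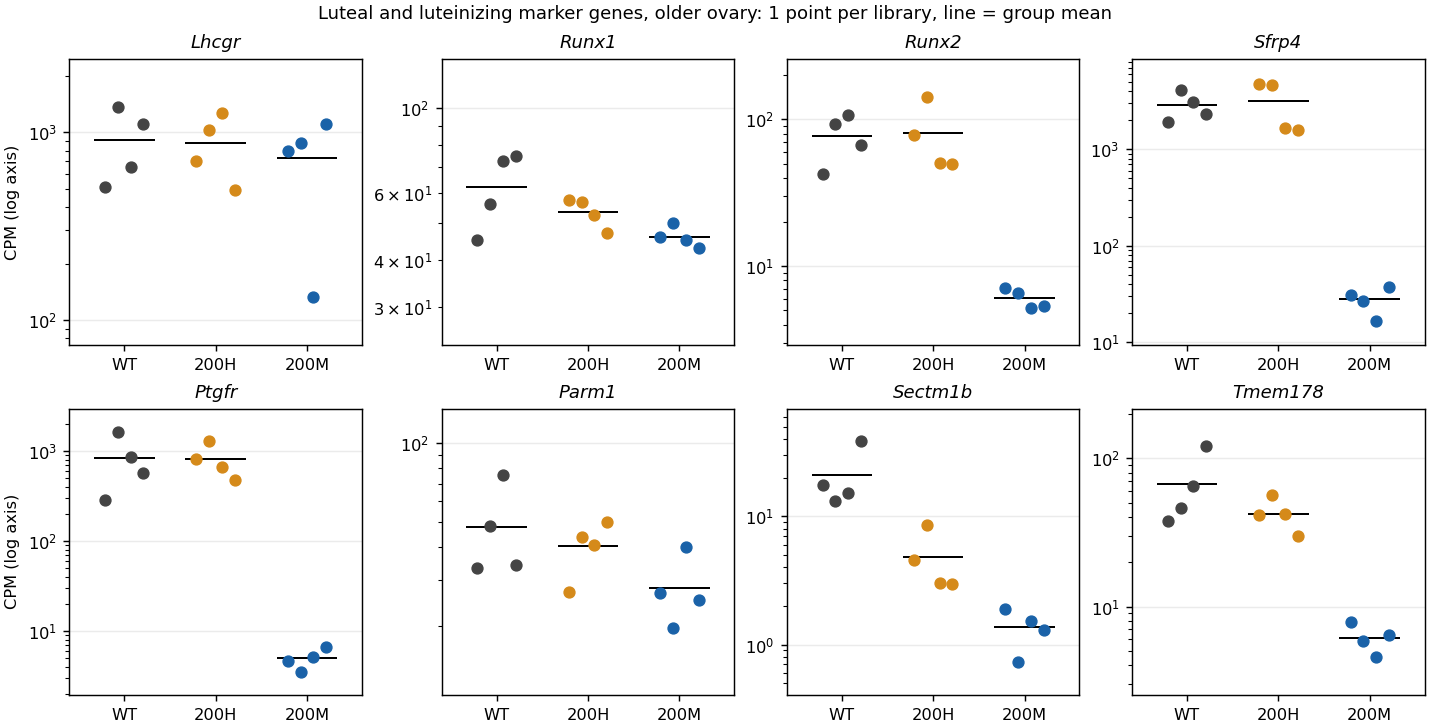
Levels of the 8 marker genes in older ovary (CPM, log axis) by genotype, with 1 point per library and a line at the group mean. For Runx2, Sfrp4, Ptgfr, Sectm1b and Tmem178 the 4 200M libraries lie together below all WT and all 200H libraries, and 200M replicate 3 is the low point of Lhcgr at 132 CPM.

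Sfrp4 was at 1901, 4089, 3093 and 2337 CPM in older WT, at 4781, 4659, 1665 and 1579 CPM in 200H, and at 30.7, 26.9, 16.7 and 37.1 CPM in 200M. WT and 200H overlapped while 200M lay far below both. 200M differed from WT by a log2FC of −6.68 (SE 0.37, adjusted p = 0.000378), 200H by 0.16 (SE 0.41, adjusted p = 0.935).

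Ptgfr was at 291, 1658, 866 and 571 CPM in older WT, at 820, 1317, 670 and 478 CPM in 200H, and at 4.70, 3.52, 5.19 and 6.73 CPM in 200M. The WT group itself was spread widely, and every 200M library lay below all of its libraries. The 200M values rest on 29 to 88 reads per library. 200M differed from WT by a log2FC of −7.37 (SE 0.60, adjusted p = 0.00152), 200H by −0.04 (SE 0.49, adjusted p = 0.99).

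Runx2 was at 42.5, 92.3, 106 and 66.4 CPM in older WT, at 78.3, 143, 50.8 and 49.5 CPM in 200H, and at 7.05, 6.56, 5.19 and 5.36 CPM in 200M. The 4 homozygous ovaries agreed closely with each other. 200M differed from WT by a log2FC of −3.67 (SE 0.29, adjusted p = 0.00147), 200H by 0.07 (SE 0.38, adjusted p = 0.972). Runx1 was at 45.0 to 74.8 CPM in WT, 47.1 to 57.3 CPM in 200H and 42.9 to 50.0 CPM in 200M, and its log2FC in 200M was −0.44 (SE 0.16, adjusted p = 0.219).

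Tmem178 was at 37.7, 46.4, 65.2 and 120 CPM in older WT, at 41.5, 56.4, 42.1 and 29.8 CPM in 200H, and at 7.84, 5.83, 4.56 and 6.43 CPM in 200M. WT and 200H overlapped. 200M differed from WT by a log2FC of −3.45 (SE 0.38, adjusted p = 0.00467), 200H by −0.66 (SE 0.35, adjusted p = 0.751).

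Sectm1b was at 17.7, 13.3, 15.2 and 38.5 CPM in older WT, at 4.54, 8.60, 3.02 and 2.98 CPM in 200H, and at 1.90, 0.729, 1.52 and 1.30 CPM in 200M. As in the young cohort, WT, 200H and 200M followed each other without overlap. 200M differed from WT by a log2FC of −3.94 (SE 0.44, adjusted p = 0.00467), 200H by −2.15 (SE 0.45, adjusted p = 0.748). DESeq2 called the heterozygous difference, as 1 of 21 genes. The 200M values rest on 6 to 19 reads per library.

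Parm1 was at 33.3, 48.0, 75.2 and 34.2 CPM in older WT and at 26.6, 19.6, 40.2 and 25.0 CPM in 200M, with a log2FC of −0.77 (SE 0.31, adjusted p = 0.25). Lhcgr was at 514, 1367, 655 and 1110 CPM in WT and at 800, 876, 132 and 1111 CPM in 200M, and the groups overlapped. Its log2FC was −0.32 (SE 0.56, adjusted p = 0.793), and 0.01 without 200M replicate 3, the library of that group with the low granulosa cell sum.

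Of the members, 5 of 8 were called lower in older 200M against WT, where 1.19% of the 17792 genes tested were called lower. The same 5 did not overlap, against 5.55% of genes. Their median log2FC over all 8 was −3.56, and that of all genes was 0.041. In older 200H against WT no member and no gene was called (0.0% of 17605 genes by edgeR, 1160 at an unadjusted p below 0.05), and 1 of 8 members did not overlap, Sectm1b, against 2.69% of genes. Against 200H, the 200M ovaries were called lower in 4 of 8 members (0.902% of 17855 genes), namely Ptgfr (−7.34, SE 0.40), Sfrp4 (−6.85, SE 0.54), Runx2 (−3.75, SE 0.37) and Tmem178 (−2.80, SE 0.23). Together with Sectm1b (−1.80, SE 0.43, adjusted p = 0.0856) these made 5 of 8 without overlap, against 4.45% of genes.

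**Figure D3:**
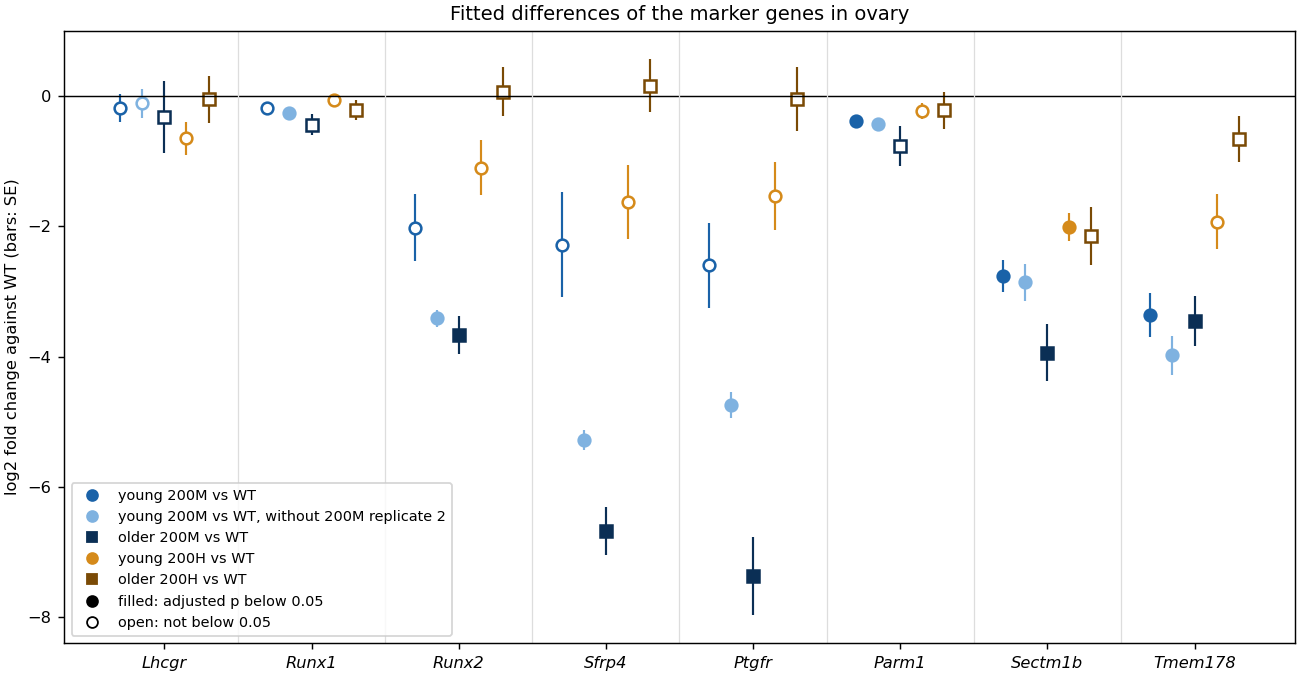
Fitted log2FC against WT for each marker gene in ovary, with bars for the standard error and filled points for an adjusted p below 0.05. Sfrp4 moves from −2.28 to −5.28 and Ptgfr from −2.60 to −4.74 when young 200M replicate 2 is left out, and the older heterozygous values are −2.15 for Sectm1b, −0.66 for Tmem178 and between −0.22 and 0.16 for the other 6 members.

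The homozygous difference was set side by side between cohorts with 1 cohort-by-genotype term. No member passed this test (0.197% of 21786 genes did, in either direction, and 2619 were at an unadjusted p below 0.05). The older minus the young difference was −4.75 on the log2 scale for Ptgfr (SE 1.08, adjusted p = 0.0826) and −4.41 for Sfrp4 (SE 1.18, adjusted p = 0.14), and both were called by DESeq2 and by edgeR without a filter on low counts. How many of all genes those settings called is not given here, so these calls have no share of all genes beside them. Ptgfr was also called when older WT replicate 1, the WT library lowest in Ptgfr, was left out. Without young 200M replicate 2 the differences between cohorts were −2.63 for Ptgfr (SE 0.62, adjusted p = 0.138) and −1.41 for Sfrp4 (SE 0.39, adjusted p = 0.205), and those of Runx2 (−0.28) and Tmem178 (0.51) were within 1 SE of 0. With all libraries Runx2 differed by −1.66 (SE 0.77, adjusted p = 0.403) and Tmem178 by −0.10 (SE 0.60). Sectm1b differed by −1.19 with all libraries (SE 0.51, adjusted p = 0.351) and by −1.09 without young 200M replicate 2 (SE 0.55, adjusted p = 0.49).

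The members were compared by the mean absolute difference of their centered log2 levels across the 24 ovary libraries, which all share these libraries and their depth. Runx1 and Parm1, the members with narrow ranges, were closest to each other (0.28), followed by Sfrp4 and Ptgfr (0.37) and by Runx2 and Tmem178 (0.474). Over 15904 genes, those nearest to Runx2 were Tnc, a matrix glycoprotein, at 0.295, D630023F18Rik at 0.355 and Cemip, a hyaluronan-degrading protein, at 0.437. The same 3 genes were nearest to Tmem178. Tnc was at 270 to 459 CPM in young WT and 39.4 to 302 CPM in young 200M, and at 439 to 1120 CPM in older WT and 45.9 to 90.1 CPM in older 200M.

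Nearest to Ptgfr were Wnt10b (0.362), a Wnt ligand, Sfrp4 and Onecut2 (0.397), and nearest to Sfrp4 were Ptgfr, Wnt10b (0.45) and Onecut2 (0.458). Wnt10b was at 77.0 to 276 CPM in older WT and at 0.56 to 1.12 CPM in older 200M. Sectm1b had no close match, its nearest genes being Clstn3 (0.51), Kcnd2 (0.513) and A730049H05Rik (0.517). Lhcgr was nearest to Prkar2b (0.274), a regulatory subunit of protein kinase A, Tmem45a and Mtcl1. Parm1 was nearest to Frk, Cdc14a and Abcc4 (0.172 to 0.185).

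Other genes of the luteal path were read from fixed lists, chosen with earlier results of these data known. In young 200M against WT 1.7% of all genes were lowered and 0.878% raised, and 3.79% and 2.41% without replicate 2. In older 200M against WT these shares were 1.19% and 1.52%. The median log2FC of all genes in these 3 fits was 0.006, 0.008 and 0.041. The list of luteal steroid synthesis has 14 genes and is not confined to synthesis enzymes, since it also holds Akr1c18, Sod2 and Abca1. Of these 14, 6 were lowered and 1 raised in young 200M against WT, and 3 were lowered in older 200M, with medians of −0.34 and −0.35. Without young 200M replicate 2 the count was 8 lowered and 1 raised, with a median of −0.42. Akr1c18, which inactivates progesterone, fell in both cohorts, from 83.1 ± 16.2 to 6.64 ± 12.1 CPM in the young ovary (log2 −3.49, SE 0.65, adjusted p = 0.0152), where the mean of 200M was 0.599 ± 0.14 CPM without replicate 2 (log2 −7.10, SE 0.24; SD, n = 3), and from 1810 ± 2030 to 4.05 ± 1.84 CPM in the older one (log2 −8.80, SE 0.99, adjusted p = 0.00482; SD, n = 4 each). Hsd17b7 fell in both as well (−0.83, −0.90 without replicate 2, and −1.59). Star, which carries cholesterol into mitochondria and is named by the study from these libraries, fell in the older ovary (−3.77, SE 0.64, adjusted p = 0.0222) and, without replicate 2, in the young one (−2.29, SE 0.23, adjusted p = 2.16e-05). Fdx1, the electron donor of side-chain cleavage, fell in the young ovary (−1.0, SE 0.14, adjusted p = 0.00435, and −1.15 without replicate 2) and was at −1.52 in the older one (adjusted p = 0.101). The raised gene was Nr5a2 (0.39, adjusted p = 0.0473, and 0.45 without replicate 2), a nuclear receptor also expressed in granulosa cells of follicles.

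Of 16 genes of luteal hormone and vessel signaling, 5 were lowered and 1 raised in young 200M, with and without replicate 2, and 3 were lowered in older 200M, with medians of −0.26, −0.32 and −0.26. Timp1 fell in both cohorts (−0.97, −1.24 without replicate 2, and −2.57), as did the cell cycle inhibitor Cdkn1a (−0.90, −1.22 without replicate 2, and −1.54). Rgcc fell in the older ovary (−2.05, SE 0.40, adjusted p = 0.0338). The prolactin receptor gene Prlr fell in the young ovary (−0.70, SE 0.14, adjusted p = 0.0213), and the raised gene was Esr2, the estrogen receptor of granulosa cells (0.71, SE 0.10, adjusted p = 0.00499). Without replicate 2 they were at −0.81 and 0.78.

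Genes that the LH surge induces in granulosa cells before ovulation had medians of −0.18, −0.19 without replicate 2, and −0.29. None of the 16 tested was called in young 200M, 2 were lowered without replicate 2, Cited4 (−1.22) and Fosl2 (−0.56), and 1 of 14 was lowered in the older ovary, Tnfaip6, a protein of the cumulus matrix (−2.91, SE 0.42, adjusted p = 0.0127). Adamts1 was at −0.16 and −0.78 and did not pass the test. Relatives of the members by family (medians −0.14, −0.17 and −0.16) were called in 0 of 18 cases in young 200M, in 1 of 19 without replicate 2, where Sfrp2 was lowered (−2.83, SE 0.31, adjusted p = 4.36e-05), and in 1 of 20 in older 200M, where Sfrp5 was raised (4.53, SE 0.67, adjusted p = 0.0145). In the older ovary Sfrp2 was at 41.0 ± 32 CPM in WT and 4.62 ± 2.52 CPM in 200M and did not pass the test (adjusted p = 0.0859). Sectm1a, the paralog of Sectm1b, was at −0.81 (adjusted p = 0.23), −0.85 without replicate 2, and −0.28 (adjusted p = 0.651). Cbfa2t3 was at −0.23 and −0.41 and Ptgir at −0.61 and 1.57, with no call.

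Markers of other cell types of the ovary were read beside these results. In older 200M the summed level of 8 macrophage markers was 1150 to 4080 CPM, against 339 to 720 CPM in WT and 449 to 892 CPM in 200H. Of these 8, 1 was raised, Lyz2 (2.88, SE 0.57, adjusted p = 0.0351), Cd68 was at 2.19 (adjusted p = 0.0523) and C1qa at 0.73 (adjusted p = 0.117). In young 200M the macrophage sum was 234 to 266 CPM, inside the WT range of 219 to 304 CPM, with 1 marker of 8 lowered (Mrc1, −0.51) and Adgre1 at −0.50. Without replicate 2, Mrc1 and Adgre1 were lowered and Lyz2 was raised (0.58). Of the 6 theca and interstitial markers 1 was raised in older 200M, Insl3, a hormone of theca cells (1.6, SE 0.23, adjusted p = 0.012), and none was called in young 200M, where Ptch1 was at 0.34 and Pdgfra at −0.18. Without replicate 2, Ptch1 was raised (0.43). Gli1 and Tcf21 were not called in either cohort.

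Of the 15 granulosa markers 1 was raised in young 200M, Kitl (0.45, SE 0.08, adjusted p = 0.0122, and 0.51 without replicate 2), and none was called in older 200M, where Fshr was at −1.01 (adjusted p = 0.172). Fst and Nr0b1 were not called, and Amh joined Kitl without young 200M replicate 2 (0.70). The granulosa sum was 4740 to 6130 CPM in young WT and 4550 to 6840 CPM in young 200M. None of the 11 oocyte markers tested was called in either cohort with all libraries, and 8 were raised in young 200M without replicate 2, among them Padi6 (0.50), Zp3 (0.55), Zp1 (0.46) and Oosp1 (0.99). Muc16, of the surface epithelium, was the 1 of 9 oviduct and surface markers lowered in young 200M (−0.64, adjusted p = 0.0172, and −0.81 without replicate 2), where Krt18 was at −0.81 and, without replicate 2, Krt19 was lowered too (−0.79), and 0 of 8 were called in older 200M, with Ovgp1 at 2.45 (SE 1.83) and Pax8 at 2.21 (SE 1.59). No endothelial (Kdr, Pecam1, Cdh5, Emcn), smooth muscle (Des, Cnn1, Myh11), fat (Fabp4, Plin1, Adipoq, Cidec) or blood (Hba-a1, Alas2, Hba-a2, Hbb-bs) marker was called in 200M of either cohort. No marker of any of these lists was at 0 in all libraries of a genotype. The part of these cell types in the levels of the members was not tested.

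**Figure D4:**
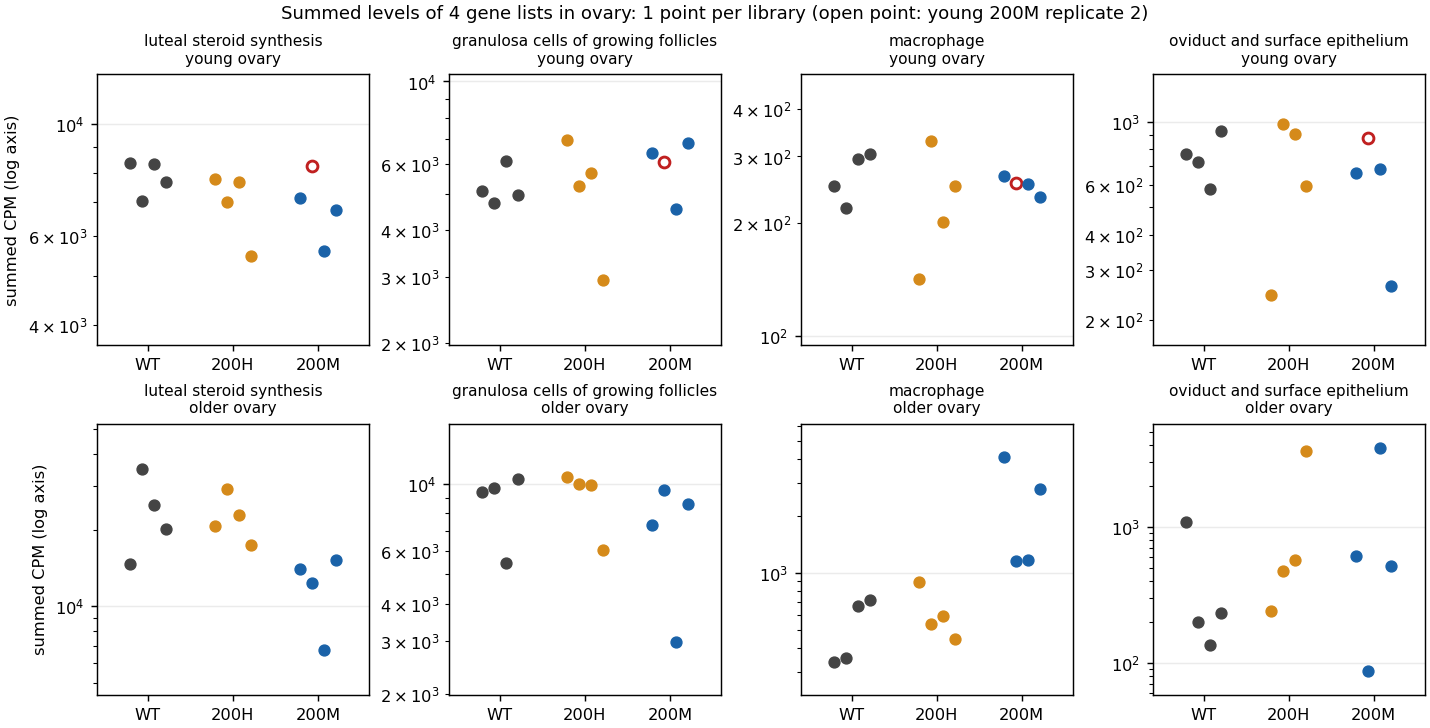
Summed CPM (log axis) of 4 gene lists in each young (top) and older (bottom) ovary library by genotype, with an open point for young 200M replicate 2. In older ovary the macrophage sum is at 1150 CPM or more in all 4 200M libraries and at 892 CPM or less in all others, and the oviduct sum ranges within each genotype.

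In pituitary, Parm1 moved opposite to its change in young 200M ovary and rose in both mutant genotypes and both cohorts. In young pituitary it was at 128, 135 and 129 CPM in WT, at 172, 172, 174 and 192 CPM in 200H, and at 201, 190, 218 and 183 CPM in 200M. No mutant library overlapped with WT, and the log2FC values were 0.45 in 200H (SE 0.07, adjusted p = 0.000996) and 0.62 in 200M (SE 0.07, adjusted p = 1.55e-05). Older pituitary libraries held 84.8, 79.8, 89.4 and 83.8 CPM in WT, 109, 106, 114 and 105 CPM in 200H, and 141, 122 and 133 CPM in 200M. The 3 genotypes followed each other without overlap there, with log2FC values of 0.36 (SE 0.07, adjusted p = 0.00748) and 0.65 (SE 0.08, adjusted p = 0.000202).

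**Figure D5:**
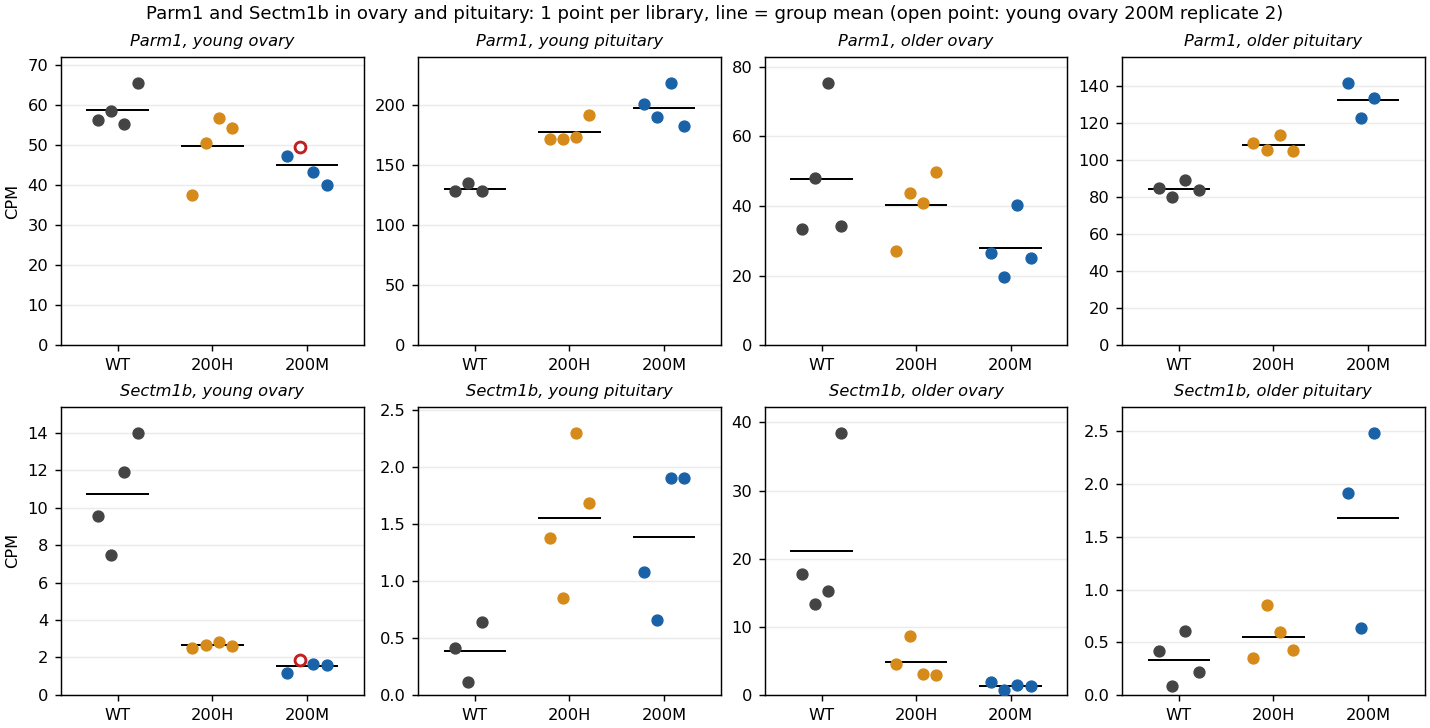
Parm1 and Sectm1b (CPM) in ovary and pituitary of both cohorts, with 1 point per library and a line at the group mean. The means of both mutant groups lie below WT in ovary and above WT in pituitary, where Sectm1b is at 2.49 CPM or less in every library.

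The other members called in pituitary were called in the young cohort, at low levels. Sectm1b was at 0.409, 0.112 and 0.643 CPM in WT, from 4, 1 and 6 reads, at 0.849 to 2.30 CPM in 200H and at 0.66 to 1.90 CPM in 200M. Its log2FC was 1.95 in 200H (SE 0.55, adjusted p = 0.0341) and 1.78 in 200M (SE 0.56, adjusted p = 0.0353). The gene passed the filter on low counts through its mutant libraries, with 10 to 23 reads in 200H and 8 to 26 in 200M. The filter thus favored a rise, and the calls of Sectm1b are not independent evidence of it. Each of these calls held in 4 of 11 alternative fits. In 4 the adjusted p was 0.0536 to 0.12 for 200H and 0.0633 to 0.161 for 200M, among them those without WT replicate 1 or 2, and in the other 3 the gene did not pass the filter. Lhcgr rose in 200M by log2 0.84 (SE 0.23, adjusted p = 0.016), from 2.46 to 3.75 CPM in WT to 4.45 to 6.47 CPM, and Runx2 by 0.56 (SE 0.15, adjusted p = 0.018), from 5.82 to 7.87 CPM to 9.45 to 10.7 CPM. The calls of Lhcgr and Runx2 held in 8 of 11 alternatives each, and both were lost without WT replicate 2. The total of 6 member calls over the 3 pairs of genotypes was 3 without WT replicate 1 and 2 without WT replicate 2, whereas Parm1 was called in both genotypes in all alternatives.

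In young pituitary 4 of 7 members tested were raised in 200M and 2 of 7 in 200H, where 11.5% and 6.56% of all genes were raised. Both counts include Sectm1b, which passed the filter through its mutant libraries. In older pituitary 1 of 4 members tested was raised in either genotype, against 11.7% and 7.09% of genes. In older pituitary Sectm1b did not pass the filter on low counts and was at 0.0854 to 0.607 CPM in WT and 0.639 to 2.49 CPM in 200M. It was called higher in 200M in the 3 alternatives that tested it, DESeq2 (adjusted p = 0.0213), no filter (0.000903) and without 200M replicate 2 (0.00878). These calls rest on 1 to 3 reads per WT library and 5 to 12 per 200M library. Without 200M replicate 2 the gene passed the filter through the remaining 200M libraries, so that call is not independent of its direction. Sfrp4 was at 0.80 there (SE 0.30, adjusted p = 0.0795) and was called in 3 of 11 alternatives, without a filter, with the replicate block and without WT replicate 4.

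The difference between tissues was tested with a tissue-by-genotype term within each cohort, a test added after the directions had been seen. Counts were kept, also by a choice made after the values were seen, to genes that passed the filter on low counts in each tissue on its own, which left out Tmem178 in the young cohort and Lhcgr, Ptgfr, Sectm1b and Tmem178 in the older one. The 200M effect was higher in pituitary than in ovary for 4 of 7 members in the young cohort, where 12.6% of genes passed in either direction, and for 3 of 4 in the older cohort, where 7.05% passed. Parm1 differed by log2 1.00 (SE 0.11, adjusted p = 8.1e-06) in the young cohort and by 1.44 (SE 0.35, adjusted p = 0.0284) in the older one. Runx2 differed by 2.58 (SE 0.74, adjusted p = 0.0297) and 4.01 (SE 0.48, adjusted p = 0.000493). Sectm1b differed by 4.54 (SE 0.57, adjusted p = 2.54e-05) in the young cohort. In pituitary it passed the filter through its 200M libraries, so its place in the young count is not independent of its direction there. Without young ovary 200M replicate 2, 6 of 7 members passed (14.4% of genes), and without older ovary 200M replicate 3, 3 of 4 (7.65%). The labels do not say which ovary and pituitary libraries come from the same female. All libraries were fitted as independent, so any such pairing is not accounted for in these SEs and adjusted p-values.

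In hypothalamus no member was called in any pair of genotypes of either cohort by edgeR. In 200M against WT, 0.02% of the young genes (847 at an unadjusted p below 0.05) and 0.00622% of the older genes (2904 at an unadjusted p below 0.05) were called. DESeq2 called 1 member, Parm1, in the older cohort. The share of all genes that DESeq2 called there is not given here, so this call cannot be set against the edgeR share. The paper's own DESeq2 test called far more genes in this comparison than edgeR did here. Parm1 was at 156 to 221 CPM in young and at 108 to 148 CPM in older hypothalamus, with a log2FC of −0.28 in older 200M (SE 0.08, adjusted p = 0.14 by edgeR). Tmem178 was at 6.28 to 13.4 CPM in young and 13.1 to 20.1 CPM in older hypothalamus, and Runx2 at 5.95 to 12.9 and 2.15 to 3.42 CPM. Sectm1b had 0 reads in all 23 hypothalamus libraries, which held 3321845 to 13917738 counted reads each, which allows a level of up to 0.216 to 0.903 CPM in a single library (3 reads, counting error only).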

How the data were processed

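RNA was sequenced from ovary, pituitary and hypothalamus, 69 libraries in 3 genotypes and 2 cohorts. The authors aligned reads with STAR 2.7.1a to mm10 and deposited whole-number counts per gene, made with featureCounts (stranded, rRNA-depleted young libraries, and unstranded, poly(A)-selected older ovary) or HTSeq 0.9.1 (older pituitary and hypothalamus). Their tables also hold fold changes and p-values of their own DESeq2 tests (1.18 and 1.38.3), which were not used. Of the count columns, 135 were used and 3 were not, the WT columns of the young pituitary 200H table, in which 1 name appears more than once. In young pituitary, 1 WT library was known by its genotype but not by its number.

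Depth was 6337205 to 14655095 counted reads in ovary, 4527753 to 13342430 in pituitary and 3321845 to 13917738 in hypothalamus, and counting error sets a limit for the members under 1 CPM. Symbols came from the deposited tables. Counts were fitted per pair of genotypes within a cohort and tissue with edgeR 4.0.16 in R 4.3.3 (TMM, filterByExpr, glmQLFit, glmQLFTest) and adjusted over all genes tested (Benjamini-Hochberg, 0.05). The code was tested on simulated data. DESeq2 1.42.0, RLE size factors, no filter, a filter on mean CPM above 1 in controls, all 3 genotypes in 1 fit, a replicate block and leaving out each library were the alternatives. CPM were scaled with TMM factors over the libraries of a cohort and tissue. Members, lists and tests were chosen with earlier results of these data known. All members are named, with up to 3 genes of each list by smallest p in older ovary, up to 2 more by smallest p in young ovary, and the 3 genes of most like pattern per member (log2 of CPM plus 1, genes of at least 1 CPM in both cohorts). The genes of most like pattern to Runx1 are not reported here. Nr5a2, Cited4 and Fosl2 complete counts. Sequences came from RefSeq and the GRCm38 annotation.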

Additional observations from a re-analysis of the deposited data

Results flagged for a closer look

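A gap test for a sample far from the rest of its group was run on 104 groups of 4 libraries, and 8 were flagged, where chance flags about 1 in 20. Each value is the gap to the nearest library as a share of the range of the group. Young ovary 200M replicate 2 was the highest of its group in Runx2 (0.974), Sfrp4 (0.985) and Ptgfr (0.997). Lhcgr was lowest in young ovary WT replicate 2 (0.89). In young pituitary, Sfrp4 was highest in 200H replicate 3 (0.896) and in 200M replicate 4 (0.849), at 3.0 and 4.19 CPM, and Parm1 was highest in 200H replicate 4 (0.91). Ptgfr was highest in young hypothalamus 200M replicate 1 (0.879).

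A difference between tissues in the 200M effect, pituitary minus ovary on the log2 scale, was found by edgeR's tissue-by-genotype term for some of the members that passed the filter on low counts in each tissue. In the young cohort it was 0.47 for Runx1, 2.58 for Runx2, 1.00 for Parm1 and 4.54 for Sectm1b. The value of Sectm1b rests on 1 to 6 reads per WT pituitary library, and the gene passed the filter there through its 200M libraries. In the older cohort it was 4.01 for Runx2, 7.50 for Sfrp4 and 1.44 for Parm1. The fit treated all libraries as independent, although both tissues may come from the same females.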

How the results depend on the processing

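Of 672 alternative log2 fold changes of the members, 620 kept their direction and their side of the threshold, 19 reversed, 18 newly passed and 15 no longer passed, and 48 mean levels without TMM factors moved by less than 1 SD. The causes were not tested. In young 200M against WT, 3 members and 497 genes were called. Without a filter on low counts these were 6 and 845, and 109 genes passed with 3 genotypes in 1 fit. Leaving out 1 library gave 2 to 7 members and 112 to 1214 genes, the highest without 200M replicate 2, and 112, 174 and 296 genes without 200M replicates 1, 3 and 4 and 158, 304 and 175 without WT replicates 1, 3 and 4. In young 200H against WT, 1 member and 1 gene became 6 and 241 without a filter and 74 genes with DESeq2, and 0 to 1 members and 0 to 9 genes without 1 library (9 without 200H replicate 1, 4 without WT replicate 2). In young 200M against 200H, no filter gave 4 members and 45 genes.

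In older 200M against WT, 482 genes were called, 1329 by DESeq2, 815 with 3 genotypes in 1 fit and 87 to 599 without 1 library (123 and 151 without 200M replicates 1 and 4, and 87, 104 and 174 without WT replicates 2, 3 and 4). In older 200H against WT, DESeq2 called 1 member and 21 genes, and no filter gave 1 gene. In older 200M against 200H, 288 genes were called, 864 by DESeq2 and 77 to 357 without 1 library (91, 89, 128 and 158 without 200H replicates 1 to 4, and 77 and 81 without 200M replicates 1 and 4). Member calls over the pairs of genotypes were 6 in young pituitary (2 to 6 without 1 library) and 2 in older pituitary (4 without a filter, 2 to 3 without 1 library), and 0 in older hypothalamus, where DESeq2 called 1. For the cohort difference, DESeq2 and no filter each called 2 members, and leaving out 1 library 0 to 1 (1 without older WT replicate 1). The counts of all genes called in these fits are not given here.

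Fold changes near 0 reversed when 1 library was left out, and ranged from −0.45 to 0.01 for Lhcgr in young 200M, −0.14 to 0.02 for Runx1 in young 200H, −0.60 to 0.01 for Lhcgr in older 200M, and −0.54 to 0.07 for Lhcgr in older 200M against 200H. In older 200H they ranged from −0.29 to 0.21 for Lhcgr, −0.37 to 0.25 for Runx2, −0.12 to 0.38 for Sfrp4, −0.37 to 0.52 for Ptgfr and −0.37 to 0.06 for Parm1.

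Same-numbered libraries deviated from their group means with correlations from −0.61 to 0.44 over all such pairs. Libraries of different numbers were not compared in this way, so these values cannot decide whether replicate numbers pair the samples. With the replicate number as a block, 150 genes were called in young 200M against WT, 101 in older 200M against WT and 77 in older 200M against 200H, no member or gene was called in young 200H against WT (0), and Ptgfr in older 200H against WT was at 0.13.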
